A study of Mus musculus with 57 samples.

Results

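Cytosolic ribosomal protein genes encode the proteins of the small (Rps) and large (Rpl) subunit of the ribosome that works outside mitochondria. They were chosen by symbol: Rpl or Rps followed by a digit, without the Rps6k kinase genes and without symbols marked as pseudogenes, and with a mean normalised read count of at least 10 over all libraries. Of 84 symbols of this form, 75 reached that mean, 31 of the small-subunit and 44 of the large-subunit naming, among 10526 tested genes and 24394 named genes. Rps19bp1 was kept by its symbol, although it names a protein that binds a ribosomal protein and not a subunit. GENCODE M21 annotates Rpl37rt and Rps4l as transcribed processed pseudogenes.

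Total RNA from the visual cortex of wild-type (WT) mice, kept on 12 h of light and 12 h of darkness, was measured in 57 libraries by MARS-Seq, a method that counts tags near transcript 3′ ends. Light mice had the usual light on the day of collection and gave 4 libraries each at Zeitgeber time (ZT, counted in hours from the usual lights-on) ZT1 and ZT3 in the morning, at ZT7.5 around midday, at ZT11.5 before and ZT13 after the usual lights-off and at ZT15 in the night, and 3 libraries at ZT18. For the Dark mice the lights stayed off that day, and they gave 4 libraries at ZT0 and at each of these times except for 3 libraries at ZT1 and at ZT13. Dark ZT0 was the time before any light. No source used here gives age, sex or batch. The labels call the samples biological replicates without naming animals, so a p-value measures only how these samples spread.

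The libraries held 1.64 to 4.31 M reads (M, mega) and 2.76 M in the median, and 7 held under 2 M, among them 2 of the 3 Dark ZT13 libraries. The summed level of 9 markers of excitatory cortical neurons ran from 4093 to 7143 normalised counts, and the choroid plexus list, led by Ttr, from 205 to 21625. The striatum list of 5 genes ran from 384 to 851, although Drd2 among them was at 0 in every library. Libraries numbered 3 and 4 stood apart from those numbered 1 and 2. Xist was above 20 normalised counts in 29 libraries. These were numbered 3 or 4 except at Light ZT13, where all 4 libraries were above 20. In Dark ZT13 Xist passed 20 in 1 of 3 libraries, and in Light ZT11.5 only in replicates 3 and 4. Light ZT13 thus differed in Xist from both groups it is compared with, and the main fit held no term for this. The nuclear RNA Malat1 was lower in replicates 3 and 4 than in replicates 1 and 2 in all 7 Light groups and higher in 7 of the 8 Dark groups. Values are given by replicate where they turned on this numbering.

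A ribosome joins RNA molecules and about equal copies of many small proteins, so cells make the ribosomal proteins as a set, and their mRNAs are among the most abundant in most tissues. Many of these mRNAs begin with a 5′ terminal oligopyrimidine (TOP) tract, a run of C and U through which mTOR signalling and the protein LARP1 control their translation and stability. In neurons, ribosomal protein mRNAs are also carried into dendrites and axons.

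The genes together took 5.08% of a library's reads in the median library, with a range of 4.06% to 6.22%. Rps21, a small-subunit protein gene, had the highest level, with a mean of 7323 and a range of 5267 to 9410 normalised counts. It was followed by Rps29, another small-subunit gene, with a mean of 6479.7, and Rpl41, which encodes the shortest of the large-subunit proteins, with a mean of 5153. A mean of 1000 or more was reached by 44 genes, 23 lay between 100 and 1000, and 8 lay below 100. Levels of different genes are tag counts and were not divided by transcript length.

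**Figure D1:**
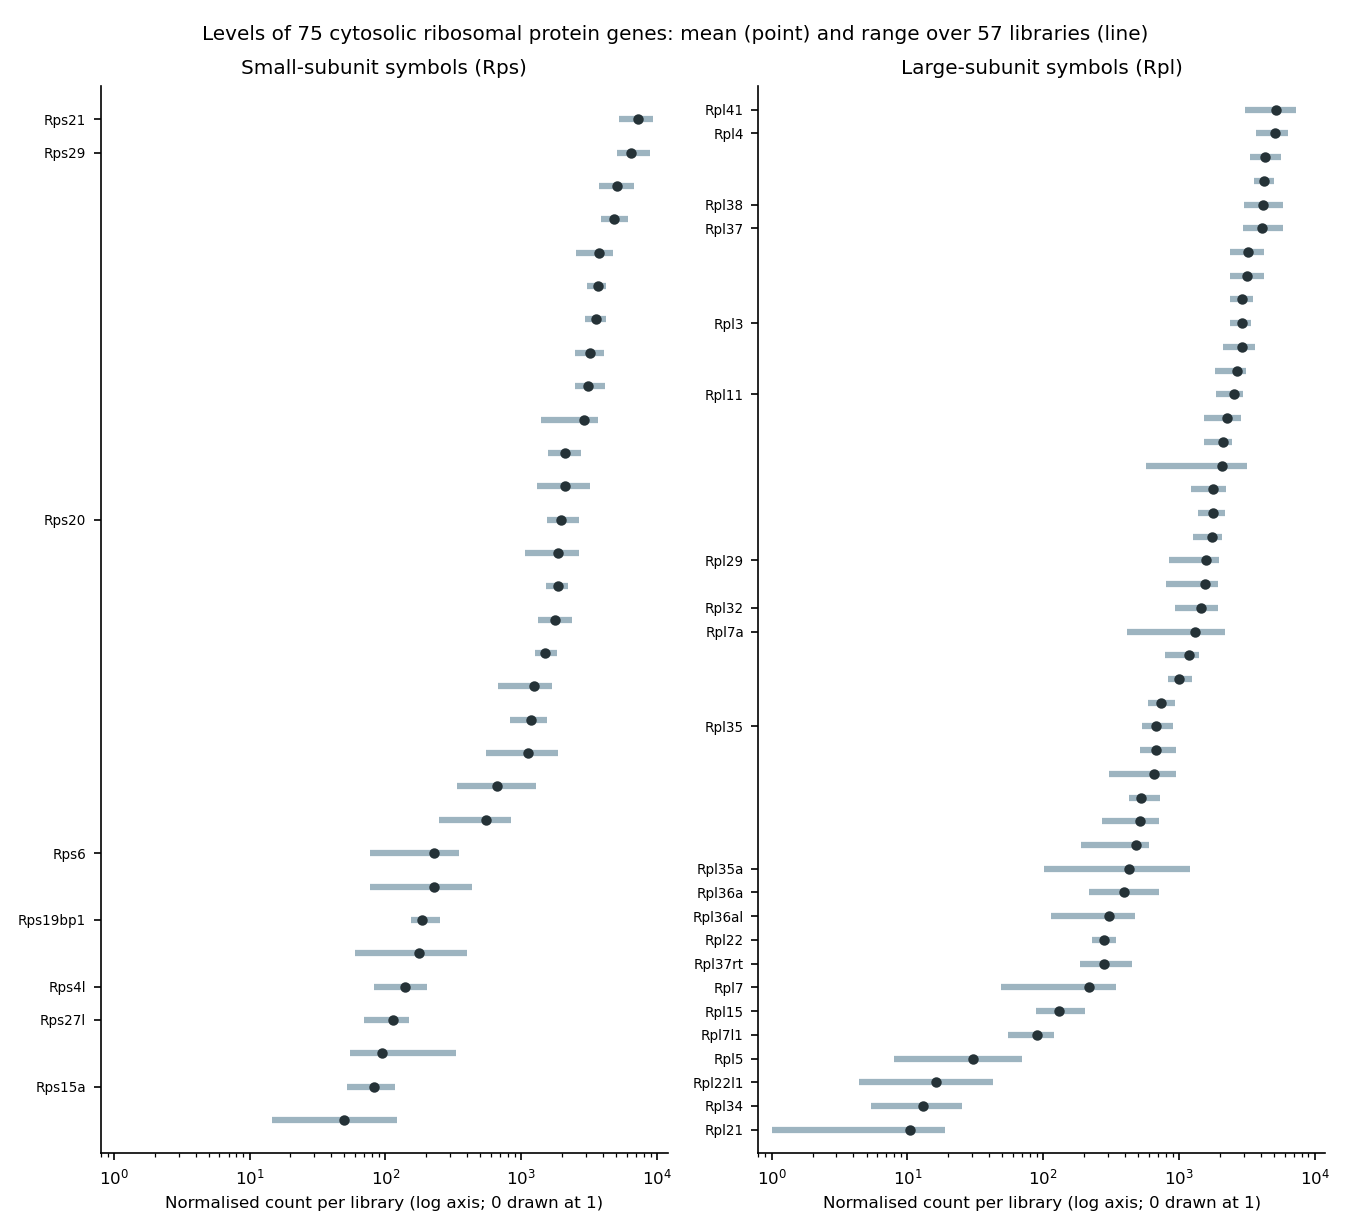
Normalised read count of each of the 75 cytosolic ribosomal protein genes (log axis), small-subunit symbols on the left and large-subunit symbols on the right, with names for some of the genes described, points for the mean and lines from the lowest to the highest of 57 libraries (a value of 0 is drawn at 1). Rps21 is highest at 7323, and Rpl21 is lowest of the genes kept at 10.5.

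Just inside the mean of 10 lay Rpl21 at 10.5, Rpl34 at 13.1 and Rpl22l1 at 16.2. Below it lay Rps27 at 6.87, Rpl39 at 3.28, Rps4x at 3.19, Rpl3l at 1.53, Rpl39l at 1.36 and Rpl30 at 0.918, and Rpl10l, Rpl26 and Rps27rt were listed at 0. Rpl3l is known as the striated-muscle counterpart of Rpl3, and Rpl10l and Rpl39l as testis counterparts of Rpl10 and Rpl39. Rps27, Rpl39, Rps4x, Rpl30 and Rpl26 encode core proteins that other tissues use widely. Low counts of these core genes are the counts as deposited, and their actual transcript levels were not tested.

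How far a tag can name one of these genes was read from the annotated transcripts. Of the 73 members with an annotated coding sequence, 34 had no 50-base stretch in the last 300 coding bases that was unique among annotated genes. In 70 of the 73, at least 1 such stretch also stood in another annotated gene, with a median of 8 other genes, and Rpl7a shared its coding end with 72. Rps19 and Rps19bp1 were among the 3 with fully unique coding ends. The last 300 bases of the whole annotated transcript, which can lie beyond the coding part, were more often unique: fully in 21 of the 73, among them Rpl37, Rpl4, Rpl11, Rpl5 and Rps20, and in no stretch in 4. In 52 they shared a stretch with another gene, and the median member had 47.0% unique stretches. Where the tags fall within these transcripts was not tested. No source used here gives how tags that match several genes were counted, so levels of single members with shared ends are uncertain.

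Several members have a paralogue, which in most pairs encodes a related form of the same protein. Rpl22 had a mean of 278 normalised counts against 16.2 for Rpl22l1, and the coding sequences were 69.4% identical. Rps27l had 115 against 6.87 for Rps27, at 75.3% identity. Rpl36a had 396 and Rpl36al 303, at 87.9% identity. For Rpl7, the mean was 216 against 89.6 for Rpl7l1, at 57.3% identity. Rps4l had 140.1, against 3.19 for Rps4x, the X-linked gene that encodes the core protein in the mouse. Rps27 and Rps4x are not members, but their ends are shared as well. Rps27 had 0% unique stretches in its coding end and 0% in its transcript end. For Rps4x these were 4.78% and 37.8%. Their low counts are therefore uncertain, and how far shared tags shaped these contrasts was not tested.

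The closest pair was Rpl37, a large-subunit gene, and its retrotransposed copy Rpl37rt. Rpl37 lies at chr15:5116645-5119140 on the plus strand of GRCm38 and Rpl37rt at chr5:115102923-115110268 on the minus strand. Over the 294 coding bases they differ once, by G249A, with Rpl37's base first and positions counted from the A of the start codon, which is 99.7% identity. They are shown in full because the only member to pass in a Light-Dark comparison is of this pair. The capital marks the base that differs.
Rpl37: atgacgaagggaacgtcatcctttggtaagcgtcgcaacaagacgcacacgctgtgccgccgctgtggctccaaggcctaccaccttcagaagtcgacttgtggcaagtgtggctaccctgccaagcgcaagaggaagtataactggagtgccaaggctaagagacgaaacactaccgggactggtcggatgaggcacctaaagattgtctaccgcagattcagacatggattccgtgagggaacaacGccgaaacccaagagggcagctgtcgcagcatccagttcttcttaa
Rpl37rt: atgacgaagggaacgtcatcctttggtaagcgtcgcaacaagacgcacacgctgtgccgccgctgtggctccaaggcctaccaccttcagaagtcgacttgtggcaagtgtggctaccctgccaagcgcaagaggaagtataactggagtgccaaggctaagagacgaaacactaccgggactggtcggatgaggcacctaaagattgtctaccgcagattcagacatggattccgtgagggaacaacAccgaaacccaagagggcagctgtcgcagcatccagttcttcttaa
Of the 245 stretches of 50 bases in this sequence, 199 are the same in both genes, so a tag from such a stretch would match both. These 199 all lie in the first 248 bases, and the stretches nearer the coding end hold the base that differs. The last 300 bases of the annotated Rpl37 transcript are unique to it. Rpl37 had a mean of 4074 and Rpl37rt of 278 normalised counts.

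Transcription start regions were taken from RefSeq (GRCm38.p6), which gave a window for 56 of the 75 members. A run of at least 8 pyrimidines (C or T) lay between 20 bases before and 30 after the start in 27 of 56, or 48.2%, against 18.8% of 27025 promoters. The letters CTTTC or CTTCC, searched there on the transcript's strand only and able to lie inside such a run, were found in 51.8% of members and 16.3% of promoters. CCGGAAG, the core of the ETS-factor motif, stood on either strand of the whole 300 bases in 35.7% against 9.12%. ATGGCG, the core of the YY1 motif, was found in 28.6% against 9.24%, and the E-box CACGTG in 8.93% against 7.24%, both searched in the same way. Such matches describe letters and were not tied to the levels.

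The starts of genes that the results below turn on are shown from 30 bases before to 20 after the start, on the transcript's strand, with the longest run of C and T in capitals. Rpl35 is at chr2:39005112-39005161 (minus strand), Rpl38 at chr11:114668550-114668599 (plus), Rpl4 at chr9:64173357-64173406 (plus), Rpl15 at chr14:18270967-18271016 (minus), Rps15a at chr7:118116128-118116177 (minus), Rpl37 at chr15:5116583-5116632 (plus) Rpl37rt at chr5:115110249-115110298 (minus), Rpl5 at chr5:107900498-107900547 (plus) and Rpl7a at chr2:26910777-26910826 (plus).
Rpl35: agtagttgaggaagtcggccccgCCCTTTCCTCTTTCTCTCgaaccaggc
Rpl38: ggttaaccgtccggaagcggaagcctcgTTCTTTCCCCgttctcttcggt
Rpl4: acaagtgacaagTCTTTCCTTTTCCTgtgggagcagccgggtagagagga
Rpl15: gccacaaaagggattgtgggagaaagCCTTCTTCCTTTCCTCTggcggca
Rps15a: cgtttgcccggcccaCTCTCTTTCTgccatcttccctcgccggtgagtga
Rpl37: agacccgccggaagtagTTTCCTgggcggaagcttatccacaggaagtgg
Rpl37rt: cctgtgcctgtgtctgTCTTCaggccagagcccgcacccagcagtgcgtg
Rpl5: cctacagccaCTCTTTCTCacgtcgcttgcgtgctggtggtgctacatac
Rpl7a: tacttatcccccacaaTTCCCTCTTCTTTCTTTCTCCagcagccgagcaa
The longest run spans 21 bases in Rpl7a, 18 in Rpl35, 17 in Rpl15, 14 in Rpl4, 10 in Rpl38 and Rps15a and 9 in Rpl5. It spans 6 in Rpl37 and 5 in the copy Rpl37rt. By this annotation the runs of Rpl7a, Rpl35, Rpl15 and Rpl38 cross the start. Those of Rpl4, Rps15a, Rpl5, Rpl37 and Rpl37rt end before it. No window was in the table for Rps20, Rpl32 and Rpl7, which are also named below, and that of Rpl35a is not shown, since its longest run of 6 bases lies past these 20 bases.

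The summed share of reads moved within a narrow band over the day. In the Light groups it averaged 4.96 ± 0.295% at ZT1, 4.93 ± 0.112% at ZT3, 5.36 ± 0.0671% at ZT7.5, 5.04 ± 0.126% at ZT11.5, 4.66 ± 0.645% at ZT13, 5.19 ± 0.236% at ZT15 and 4.94 ± 0.0835% at ZT18 (SD, n = 4, and n = 3 at ZT18). The Dark groups averaged 4.94 ± 0.303% at ZT0, 5.48 ± 0.132% at ZT1, 5.23 ± 0.345% at ZT3, 5.15 ± 0.188% at ZT7.5, 5.58 ± 0.442% at ZT11.5, 5.19 ± 0.363% at ZT13, 5.01 ± 0.126% at ZT15 and 5.21 ± 0.202% at ZT18 (SD, n = 4, and n = 3 at ZT1 and ZT13). The Light ZT13 libraries were the most spread, at 4.95%, 5.43%, 4.20% and 4.06% for replicates 1 to 4, against 5.61%, 4.93% and 5.05% at Dark ZT13. The shares of 4.20% and 4.06% were the lowest of all 57 libraries. In bulk tissue, fewer cells of a type and less RNA per cell cannot be told apart.

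**Figure D2:**
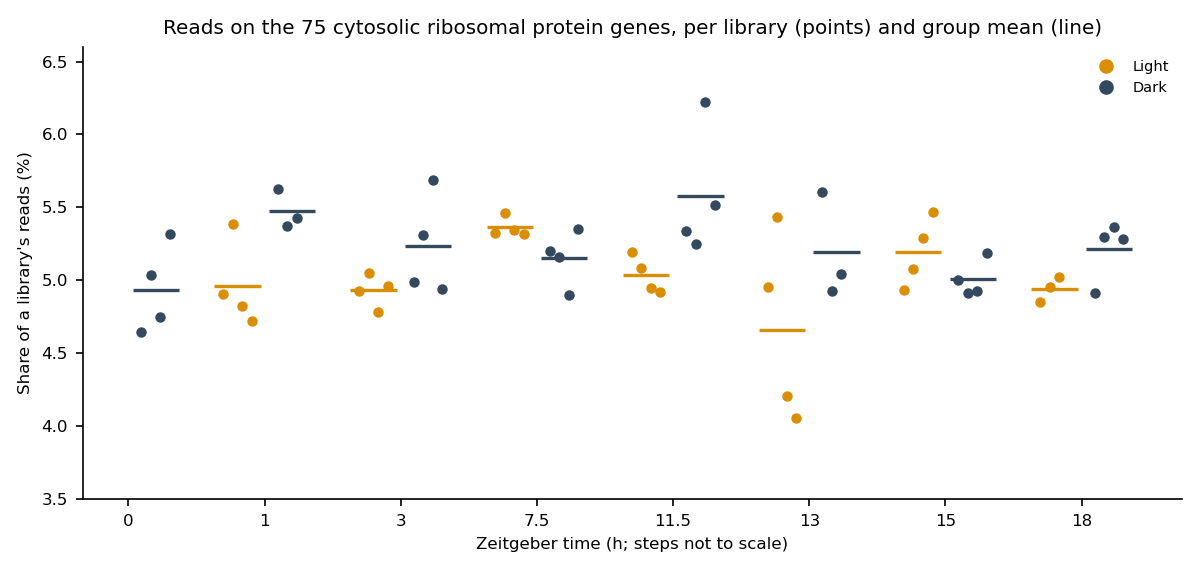
Share of a library's reads (percent) taken by the 75 genes, by Zeitgeber time, for Light and Dark, with a point for each library and a line for the group mean (the axis does not start at 0). The Light ZT13 libraries spread from 4.06% to 5.43%, and the Dark ZT11.5 group has the highest mean at 5.58%.

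Light was compared with Dark at 7 times, which asks what a day with light did to these mRNAs. At ZT11.5, the end of the usual light phase, Rpl37rt was lower in Light than in Dark. It had 209, 235, 187 and 198 normalised counts in the Light libraries, against 353, 304, 454 and 385 in the Dark libraries. Every Light library lay below every Dark library. The means were 207 ± 20.7 in Light and 374 ± 63.1 in Dark (SD, n = 4 each), a log2 difference of -0.84 ± 0.157 (SE) with an adjusted p of 0.00247 in limma. It was -1.12 among replicates 3 and 4 and -0.56 among replicates 1 and 2. Leaving out Dark ZT11.5 replicate 3, the highest library, gave -0.74 and an adjusted p of 0.0639.

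Its source gene Rpl37 had 3564, 3892, 3097 and 3186 in the Light libraries, against 4406, 4199.8, 5821 and 4705 in the Dark libraries. These groups did not overlap either. The difference was -0.47 ± 0.111 (SE), and limma's adjusted p of 0.0505 lay just above the threshold of 0.05. It passed in edgeR, with an adjusted p of 0.0410, and in DESeq2, with 0.0140, on reads recovered from the values. Whether the counts of this pair share tags, through their common coding sequence, was not tested.

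**Figure D3:**
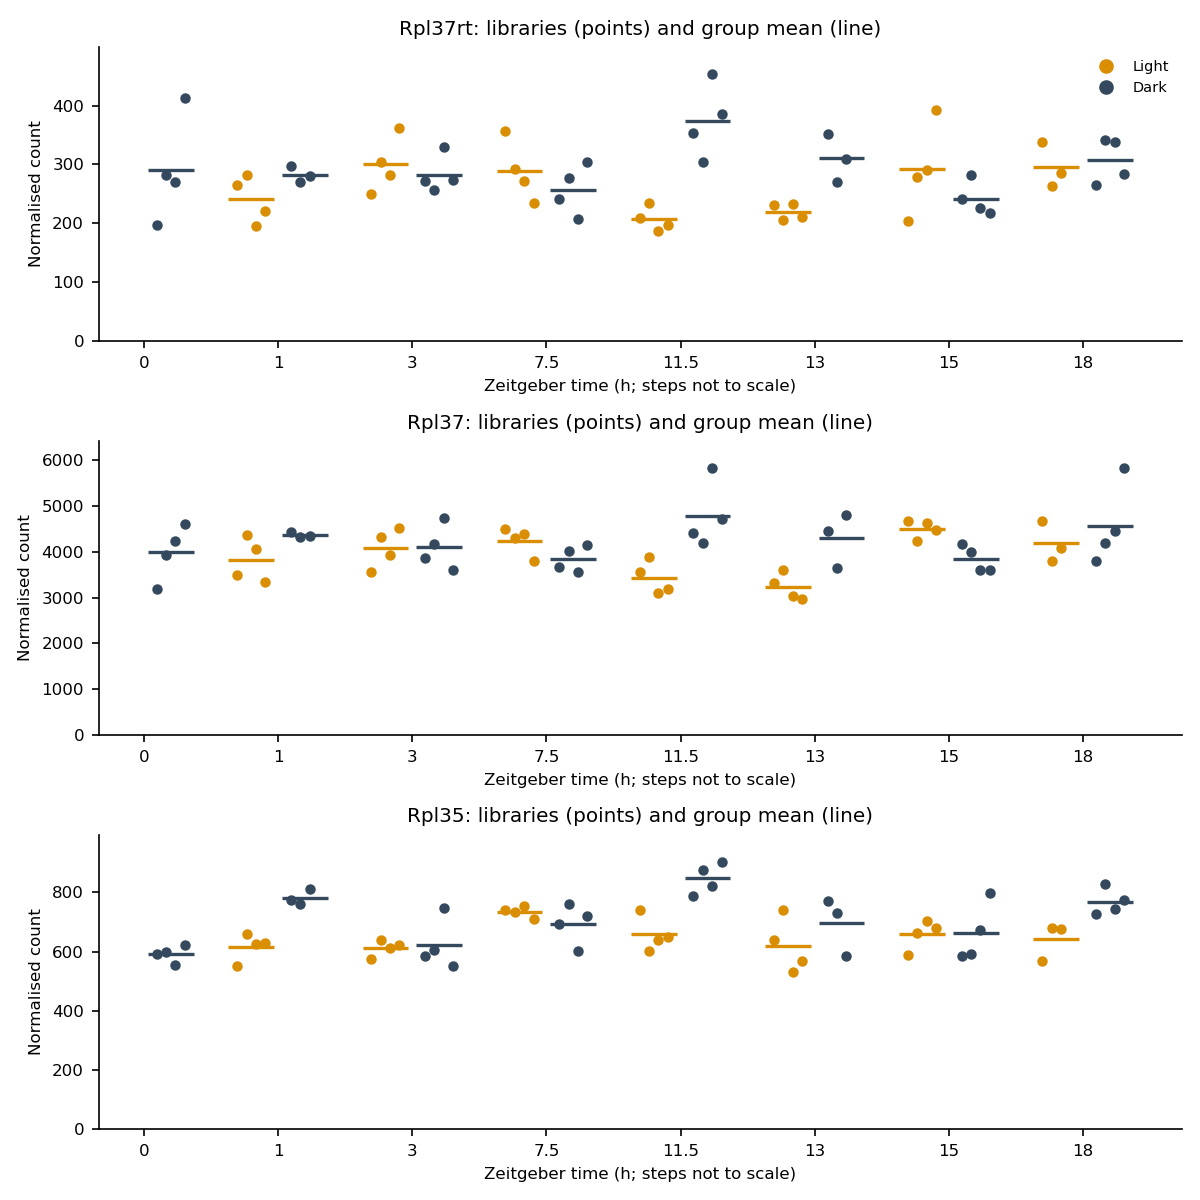
Normalised read counts of the copy Rpl37rt, of Rpl37 and of Rpl35 by Zeitgeber time in Light and Dark, with a point for each library and a line for the group mean. At ZT11.5 the Light points of all 3 genes lie below the Dark points.

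Rpl37rt was thus 1 of 75 members to pass at ZT11.5, against 0.152% of all tested genes. The next in order were the large-subunit genes Rpl35 at -0.37 (adjusted p 0.105) and Rpl38 at -0.32 (0.313) and the small-subunit gene Rps15a at -0.42 (0.173), by limma with Benjamini-Hochberg adjustment. Over all members the median log2 difference was -0.17, against 0.00 over all genes, with 61 of 75 below 0. It was -0.17 in the small-subunit and -0.17 in the large-subunit genes alike. At an unadjusted p under 0.05, 18 members were lower in Light, against 3.89% of all genes lower.

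At ZT13, 1 h into the usual dark phase, 0 members passed in limma, edgeR or DESeq2, against 0.038% of all genes in limma. At an unadjusted p under 0.05, 21 members were lower in Light, against 4.45% of all genes lower. The median was -0.16 over the members and 0.00 over all genes, with 62 of 75 below 0. Rpl37 averaged 3229 ± 289 in Light and 4296 ± 589 in Dark (SD, n = 4 and 3), at -0.41 with an adjusted p of 0.286. Rpl37rt had 230.4, 205, 232 and 210.2 in the Light libraries, against 351, 269 and 309.96 in the Dark libraries. All Light values of the copy lay below the Dark values, at -0.49 with an adjusted p of 0.362 in limma. Without the libraries under 2 M reads, which leaves 1 Dark ZT13 library, the members' median was -0.32.

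The median at these times was uneven between the replicate numbers. At ZT11.5 it was -0.21 among replicates 3 and 4 and -0.06 among replicates 1 and 2. At ZT13 it was -0.30 among replicates 3 and 4 and -0.04 among replicates 1 and 2, and at ZT1 -0.21 and -0.02 in that order. At both ZT13 and ZT1 the Dark side of replicates 3 and 4 was 1 library. The Dark ZT13 one held 1.64 M reads, the fewest of all 57 libraries. The part of the numbering in the medians was not tested.

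At ZT1, after 1 h of light, 0 members passed in limma, edgeR or DESeq2, against 0.257% of all genes in limma. The median was -0.14, with 61 of 75 below 0, and 7 members were lower at an unadjusted p under 0.05, against 1.62% of all genes lower. The large-subunit gene Rpl32 led at -0.42 with an adjusted p of 0.207, followed by Rpl35 at -0.34 with 0.309 and Rps20 at -0.35 with 0.390. Rpl35 had 553, 659, 627 and 628 at Light ZT1, against 774, 761 and 810.3 at Dark ZT1. These values did not overlap, and the Dark ZT1 group was the high one, as its comparison with ZT0 below shows.

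At the other times 0 members passed in limma, edgeR or DESeq2. In limma this was against 0.124% of all genes at ZT3 and 0% at ZT7.5, ZT15 and ZT18. The medians were -0.08 at ZT3, 0.06 at ZT7.5, 0.03 at ZT15 and -0.10 at ZT18. The members below 0 numbered 58 of 75 at ZT3, 25 at ZT7.5, 26 at ZT15 and 57 at ZT18, so the balance of signs was not kept over the day. At an unadjusted p under 0.05 there were 6 members at ZT3, 5 at ZT7.5, 1 at ZT15 and 5 at ZT18, against 6.94%, 5.82%, 4.41% and 9.16% of all genes. At ZT3 the gene leading the order was Rps6, the small-subunit protein phosphorylated downstream of mTOR, at -0.63 with an adjusted p of 0.552. At ZT7.5 it was the sparsely counted Rpl21 at -1.16 with 0.726, at ZT15 Rpl37 at 0.23 with 0.996, where its Light mean was the higher one, and at ZT18 Rpl35 at -0.26 with 0.3995.

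**Figure D4:**
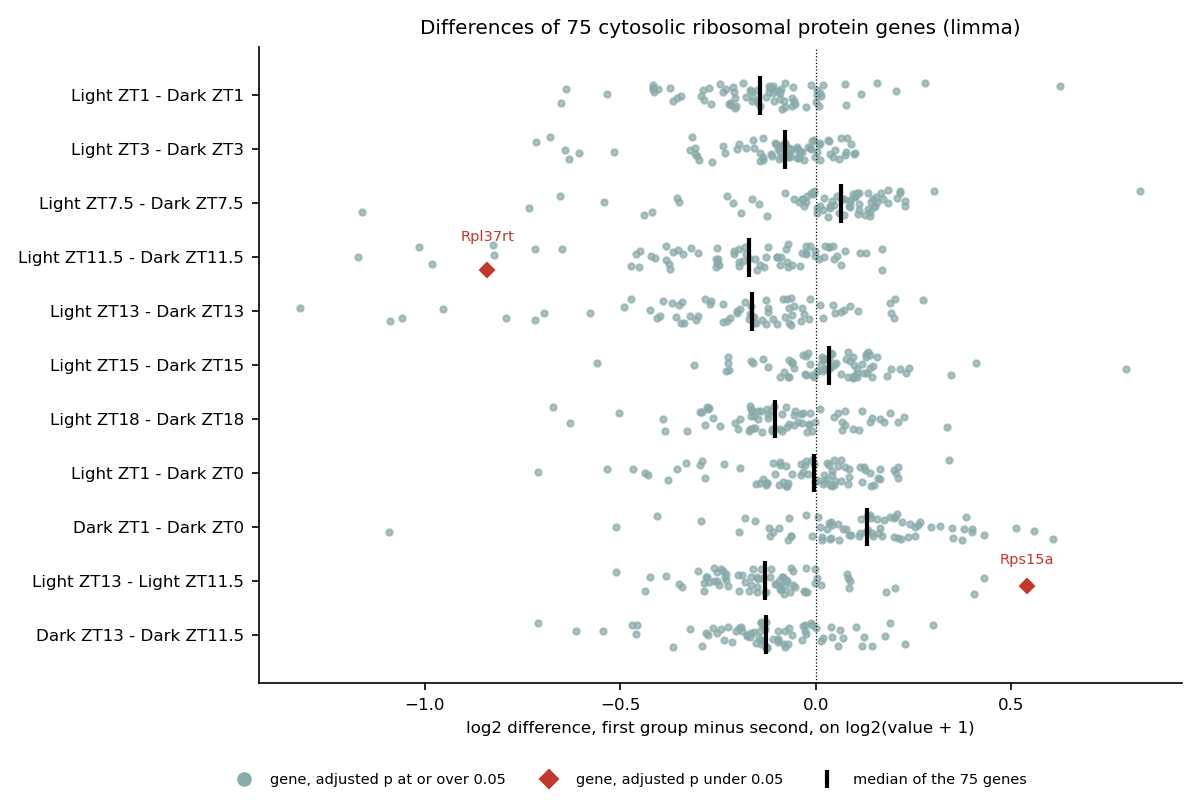
Log2 difference of each of the 75 genes in the Light-Dark comparisons at 7 times and in the dawn and dusk comparisons, on the log2(value + 1) scale, with a point for each gene and a bar for the median. The medians lie lowest at Light against Dark ZT11.5 (-0.17) and ZT13 (-0.16) and highest at Dark ZT1 against Dark ZT0 (0.13).

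Dawn was compared in each arm with the same Dark ZT0 libraries, and the ZT1 comparison above uses the same Light and Dark ZT1 libraries, so these comparisons are not independent. Between Light ZT1 and Dark ZT0 the members' median was -0.00, with 39 below 0 and 36 above. In limma 0 members passed, against 0.304% of all genes, and 2 had an unadjusted p under 0.05, against 5.66%. The order was led by Rpl29 at -0.35 with an adjusted p of 0.798 and Rpl15 at 0.34 with 0.833. Neither edgeR nor DESeq2 called a member.

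Between Dark ZT1 and Dark ZT0, with no light at either time, the median was 0.13, with 58 of 75 above 0. In limma 0 members passed, against 0.057% of all genes, while 15 members were higher and 3 lower at an unadjusted p under 0.05, against 3.45% of all genes higher and 5.38% lower. Rps20 averaged 2289 ± 95.0 at Dark ZT1 and 1698 ± 62.8 at Dark ZT0 (SD, n = 3 and 4), at 0.43 ± 0.111 (SE) with an adjusted p of 0.119. Rpl35 had 774, 761 and 810.3 at Dark ZT1, against 590.5, 600.2, 555 and 624 at Dark ZT0. The Rpl35 groups did not overlap, at 0.40 ± 0.103 (SE) with an adjusted p of 0.119. DESeq2 called 3 members here and edgeR 0.

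Dusk was compared within each arm, as ZT13 after lights-off against ZT11.5. In Light mice, the small-subunit gene Rps15a was higher at ZT13. It had 83.2, 91.9, 81.0 and 87.2 normalised counts at Light ZT13, against 62.5, 66.1, 54.6 and 52.3 at Light ZT11.5. The ZT11.5 values lay below those of all other Light libraries. The difference was 0.54 ± 0.122 (SE) with an adjusted p of 0.0297 in limma, and it was the only 1 of 75 members to pass, against 0.257% of all genes. It did not pass without Light ZT11.5 replicate 1, 3 or 4 or without Light ZT13 replicate 3 or 4, with adjusted p-values from 0.0699 to 0.1197, or with only these 2 groups in the fit (0.2601).

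In the other direction, 10 members were lower at Light ZT13 at an unadjusted p under 0.05, against 5.83% of all genes lower. Among them was the large-subunit gene Rpl11 at -0.25 with an adjusted p of 0.138. Rpl11 is known to bind and restrain Mdm2 when ribosome assembly fails. The members' median was -0.13, with 64 of 75 below 0. Their mean log2 level in replicates 1 to 4 was 9.75, 9.74, 9.65 and 9.66 at Light ZT11.5. At Light ZT13 it was 9.72, 9.88, 9.39 and 9.33, so the clearly lower libraries were replicates 3 and 4. The part of the numbering in this dusk change was not tested.

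At Dark ZT13 against Dark ZT11.5 the members' median was -0.13, with 59 of 75 below 0. Their mean log2 level in replicates 1 to 4 was 9.82, 9.83, 10.09 and 9.96 at Dark ZT11.5. At Dark ZT13 it was 9.93, 9.75 and 9.72 in replicates 1 to 3. The highest levels at ZT11.5 were thus in replicates 3 and 4, and the levels of replicates 1 and 2 overlapped between the times. In limma 0 members passed, against 0.0095% of all genes, with 6 members at an unadjusted p under 0.05, against 8.18%, and 0 in edgeR or DESeq2. Without the libraries under 2 M reads, which leaves 1 Dark ZT13 library, the median turned to 0.01. Rps15a had 91.3, 82.2 and 56.2 at Dark ZT13, against 99.0, 75.2, 75.3 and 69.1 at Dark ZT11.5, so these groups overlapped. The dusk change of Rps15a in Light minus that in Dark was 0.61 ± 0.179 (SE) with an adjusted p of 0.667, and 0 members passed this test, against 0% of all genes, in limma, edgeR or DESeq2. Unadjusted, 4 members had a p under 0.05 there, against 5.21% of all genes.

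Change over the whole day was tested by moderated F tests over the times of each arm. Over the 8 Dark times 6 members varied at an adjusted p under 0.05, or 8% of the members, against 6.52% of all genes, so that the members did so about as often as genes in general. They were the large-subunit genes Rpl35, Rpl38, Rpl4, Rpl32 and Rpl15 and the small-subunit gene Rps20. Rpl35 had the lowest adjusted p, at 0.00159. It averaged 592 ± 28.6 at ZT0, 782 ± 25.4 at ZT1, 622 ± 87.1 at ZT3, 694 ± 67.0 at ZT7.5, 847 ± 52.8 at ZT11.5, 696 ± 98.4 at ZT13, 662 ± 98.4 at ZT15 and 768 ± 44.5 at ZT18 (SD, n = 4, and n = 3 at ZT1 and ZT13). Its means thus stood high at ZT1, at ZT11.5 and at ZT18, with lower means between.

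Rps20 also had high Dark means at ZT1 and ZT11.5, with 1698 ± 62.8 at ZT0, 2289 ± 95.0 at ZT1, 1786 ± 147 at ZT3, 2293 ± 278 at ZT11.5 and 1849 ± 306 at ZT15 (adjusted p 0.0180, limma). Rpl4 averaged 4376 ± 472 at ZT0, 5553 ± 228 at ZT1, 4646 ± 504 at ZT3, 5602 ± 522 at ZT11.5 and 5654 ± 21.1 at ZT13 (adjusted p 0.0421). Rpl38 was high at ZT18 as well, with 3987 ± 401 at ZT0, 4770.3 ± 399 at ZT1, 3722 ± 362 at ZT7.5, 4762 ± 720 at ZT11.5 and 4896 ± 660 at ZT18 (adjusted p 0.0268). For Rpl32 the means were 1354 ± 107 at ZT0, 1758 ± 97.9 at ZT1, 1325 ± 150 at ZT3 and 1684 ± 209 at ZT11.5 (adjusted p 0.0455). Rpl15, the sparsest of the 6, averaged 121 ± 24.0 at ZT0, 179 ± 33.3 at ZT1, 154 ± 15.1 at ZT11.5 and 112 ± 14.3 at ZT18 (adjusted p 0.0497). Each of the 6 had a higher mean at ZT1 than at ZT0 and at ZT3. Over 44 settings each, Rpl35 passed in 44, Rps20 in 43 and Rpl38 in 40, but Rpl4 in 26, Rpl32 in 20 and Rpl15 in 19. Without the libraries under 2 M reads 2 members passed, and leaving out single Dark libraries gave 2 to 7.

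Over the 7 Light times 3 members varied, or 4%, against 3.81% of all genes, and Rps15a and Rpl37 are described here. Rps15a passed with an adjusted p of 0.0169 in limma. It averaged 85.9 ± 9.77 at ZT1, 85.4 ± 6.51 at ZT3, 79.2 ± 3.32 at ZT7.5, 58.9 ± 6.48 at ZT11.5, 85.9 ± 4.81 at ZT13, 85.7 ± 4.92 at ZT15 and 80.8 ± 7.36 at ZT18 (SD, n = 4, and n = 3 at ZT18). Its single low time was ZT11.5. Rpl37 averaged 4241 ± 309 at ZT7.5, 3435 ± 366 at ZT11.5, 3229 ± 289 at ZT13 and 4499.96 ± 199 at ZT15 in Light (adjusted p 0.0227). Without Light ZT13 replicate 2 the count was 7, and DESeq2 called 8.

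A light-dark difference that changed with time was tested over the 7 times that both arms share. Rpl37rt passed with an adjusted p of 0.0395 in limma, as 1 of 75 members, against 0.181% of all genes. Its Light means were 241 ± 39.9 at ZT1, 299.9 ± 47.1 at ZT3, 289 ± 50.9 at ZT7.5, 207 ± 20.7 at ZT11.5, 219.6 ± 13.8 at ZT13, 291 ± 77.4 at ZT15 and 295 ± 38.9 at ZT18. The Dark means were 283 ± 13.9, 283 ± 31.7, 257 ± 42.6, 374 ± 63.1, 310.1 ± 40.8, 242 ± 28.6 and 307 ± 38.3 at the same times, and 290.2 ± 89.8 at ZT0. By mean, Light was above Dark at ZT3, ZT7.5 and ZT15 and below it at the other times, with the widest gap at ZT11.5. The sign at ZT15 turned on the numbering, at 0.60 among replicates 3 and 4 and -0.13 among replicates 1 and 2. Rpl37 and Rpl38 had adjusted p-values of 0.0705 and 0.0705. The call on Rpl37rt was a narrow one: leaving out any 1 of 28 of the 53 libraries in the test gave 0 members.

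A group of 4 members differed by replicate number, of which the large-subunit genes Rpl35a, Rpl7 and Rpl5 are described here. They were lower in replicates 3 and 4 than in replicates 1 and 2, with no overlap, in all 7 Light groups. The 4 are 5.33% of the members, against 0.751% of all genes. Rpl35a had 126 and 107 in Light ZT11.5 replicates 3 and 4, against 458 and 371 in replicates 1 and 2. At Dark ZT11.5 it had 901 and 1213 in replicates 3 and 4, against 163 and 333 in replicates 1 and 2, the other way round. At Dark ZT15 it had 102 and 154, against 621 and 164, so the Dark groups had no single direction.

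The mean log2 difference of replicates 3 and 4 minus replicates 1 and 2 over the Light groups was -1.48 for Rpl35a, with a range of -1.82 to -0.99. It was -1.36 for Rpl7 (-2.34 to -0.92) and -0.92 for Rpl5 (-1.76 to -0.30). In the Dark groups it ran from -1.34 to 2.16 for Rpl35a, -0.80 to 1.07 for Rpl7 and -1.22 to 1.02 for Rpl5. Over 8 Dark groups 0 members were higher in replicates 3 and 4 in all of them, against 0.019% of all genes. Malat1 moved with the same numbering: at Light ZT11.5 it averaged 29.7 in replicates 3 and 4 and 149.97 in replicates 1 and 2. Xist split by the same numbering in every group but Light ZT13, where replicates 1 and 2 were also above 20 normalised counts. Sex is not given, and whether it sets the replicates apart was not tested.

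**Figure D5:**
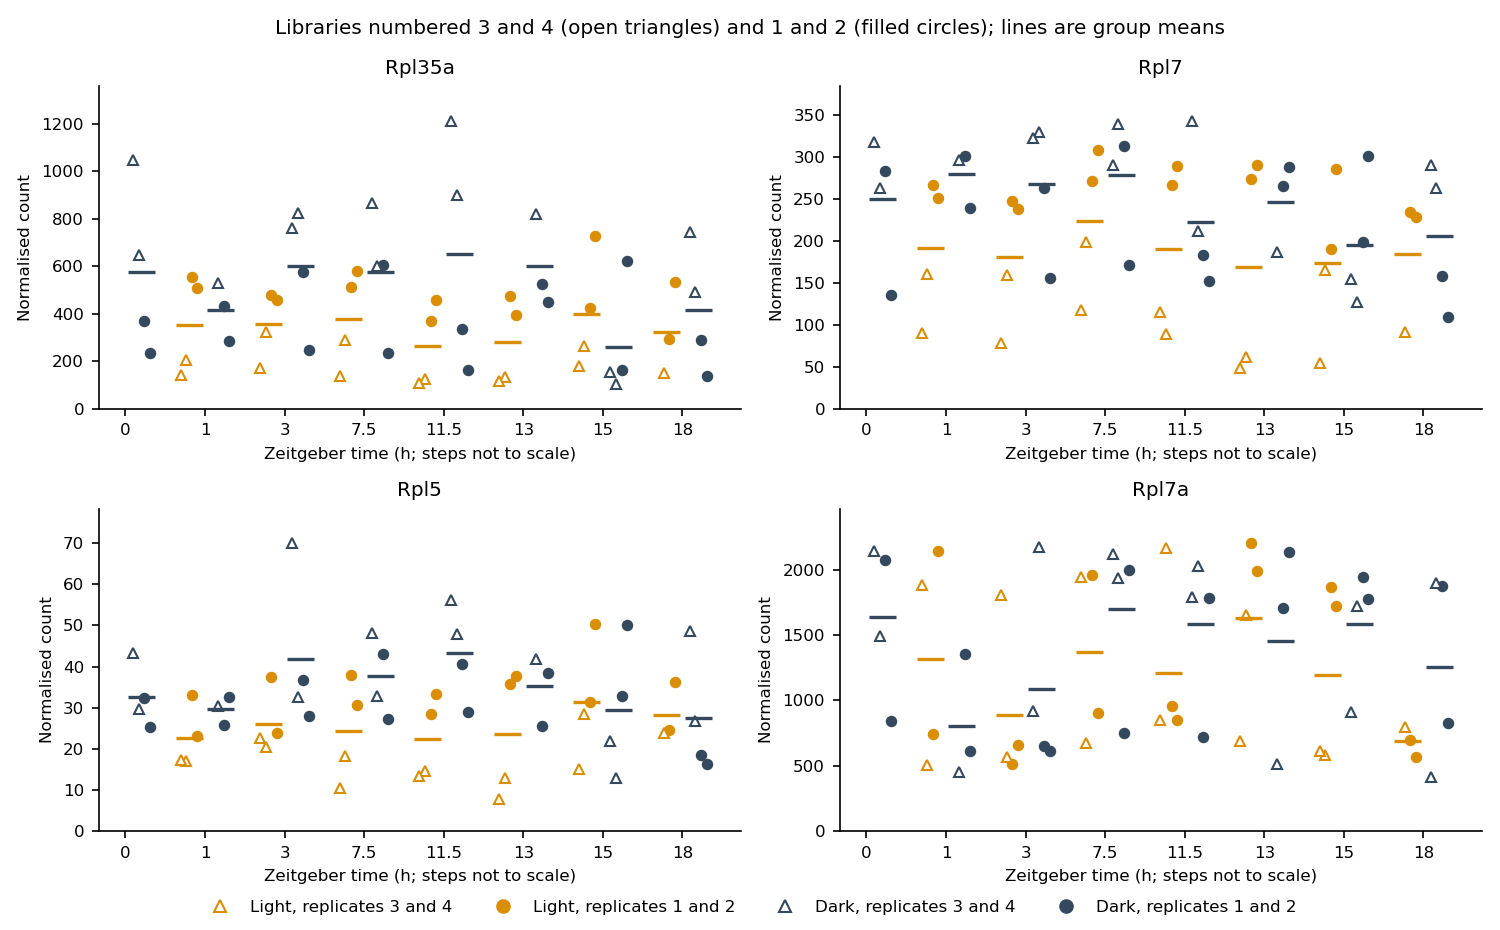
Normalised read counts by Zeitgeber time of Rpl35a, Rpl7 and Rpl5, and of Rpl7a, with open triangles for replicates 3 and 4, filled circles for replicates 1 and 2 and lines for group means. For the 3 genes named first, the triangles of every Light group lie below its circles, and in Dark they do not keep one order.

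After removal of the group means, the pairwise Pearson correlation over the 57 libraries had a median of 0.19 over all 2775 pairs of members, with a range of -0.59 to 0.92. These values describe libraries that also share depth and handling. The coefficient of variation over all libraries was 60.1% for Rpl35a, 40.7% for Rpl5 and 38.4% for Rpl7, against 6.81% for Rpl3, one of the steadiest members.

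Rpl7a, a large-subunit gene, fell into separate levels. In 28 libraries it had 416 to 959 normalised counts and in 29 libraries 1356 to 2202, and no library lay between. The lower level was seen in 16 of 27 Light and 12 of 30 Dark libraries, in 13 of 27 libraries numbered 3 or 4 and 15 of 30 numbered 1 or 2, and in 13 of 29 libraries with Xist above 20. Each arm and each set of replicates therefore held both levels. The gap of 0.50 on the log2 scale was matched or passed by 2 of the 4760 genes with a mean of at least 100, whose median gap was 0.0458. What separates the libraries was not tested.

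Ribosome genes that the symbol rule leaves out were read from a list of 8 symbols, of which 7 were tested, among them the stalk proteins Rplp0, Rplp1 and Rplp2, the laminin-receptor protein gene Rpsa, the ubiquitin-like fusion gene Fau, and Gnb2l1, the scaffold known as Rack1. Over the 12 pairwise comparisons 0 of the 7 passed in limma and 0 in edgeR, and DESeq2 called 2. At an unadjusted p under 0.05 there were 6 of 84 results, or 7.14%, against 7.21% over all genes in these comparisons. At ZT11.5 Fau was lowest at -0.34 with an adjusted p of 0.190, and their median was -0.02. At ZT13 the median was -0.13. Gnb2l1 varied over the Light times with an adjusted p of 0.0102 in limma, at 2306 ± 138 at Light ZT7.5 and 1831 ± 168 at Light ZT13 (SD, n = 4 each).

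Lists of neighbouring processes were read in the same way. Of 14 tested translation factors and other TOP mRNAs, 26 genes of ribosome biogenesis, 21 genes that control ribosomal protein mRNAs (mTOR, S6 kinase and 4E-BP genes and others) and 70 mitochondrial ribosomal protein genes, 0 passed in any of the 12 comparisons in limma or edgeR. An unadjusted p under 0.05 was found in 10.1%, 5.77%, 7.94% and 5.71% of their results in that order, against 7.21% over all genes, and DESeq2 called 1, 0, 0 and 0. Of 79 oxidative phosphorylation genes, 1 was lower in limma, at Light ZT13 against Light ZT11.5, with 1 call in edgeR, 5 in DESeq2 and an unadjusted p under 0.05 in 10.8% of results. At ZT11.5 their medians were -0.04 for the translation factors, 0.04 for biogenesis and 0.01 for the control genes. They were 0.00 for the mitochondrial ribosome and -0.07 for oxidative phosphorylation, beside the -0.17 of the cytosolic genes. The lowest medians over the 12 comparisons were -0.17, -0.03, -0.08, -0.08 and -0.18 in that order. A median near -0.17 was thus also reached by the translation factors and the oxidative phosphorylation genes.

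Over the Dark times, when 6.52% of all genes varied, 2 of 21 control genes did, Ddit4 (adjusted p 9.28e-05) and Eif4ebp1 (0.000317), both brakes on mTOR-driven translation, and 1 of 26 biogenesis genes, Rrs1 (0.0471). With them varied 4 of 70 mitochondrial ribosomal protein genes, Mrpl3, Mrps10, Mrpl34 and Mrpl45, and 1 of 79 oxidative phosphorylation genes, Cox6c. Over the Light times, when 3.81% of all genes varied, the control genes Ddit4 (0.000872), Eif4ebp1 (0.0102) and Sesn1 (0.04998) did, by limma's F test in each case. So did 1 of 14 translation factors and other TOP mRNAs, Btf3 (0.0492), the mitochondrial ribosomal gene Mrpl14 (0.0128) and the oxidative phosphorylation genes Ndufb9, Ndufa13 and Ndufs8 (0.0272 to 0.0402). Markers of other cell types moved too: all 6 oligodendrocyte markers varied over the Dark times and 3 of them over the Light times. Their summed level at ZT11.5 ran from 21869 to 24438 in Light and from 19046 to 21886 in Dark. The part of cell type in the ribosomal values was not tested.

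Likeness to the mean level of the members was described by the Pearson correlation of deviations from the group means over the 57 libraries, which share depth and scaling. Outside the members, the genes most like it were Atp5h at 0.80, R3hdm4 at 0.77, Pomp and Ndufa4 at 0.75 and Eef1a1 at 0.74. Atp5h and Ndufa4 encode parts of the mitochondrial respiratory chain and ATP synthase, Pomp a proteasome assembly factor and Eef1a1 a translation elongation factor. The genes most opposed were Rere at -0.72, Adcy1 at -0.68 and Dagla at -0.67. Among the members themselves, Rpl36a at 0.78 and Rpl9 at 0.71 were among those that followed the mean of the others most closely, and Rpl15 at -0.04 and Rpl28 at 0.03 least.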

How the data were processed

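The submitters' processing notes name cutadapt, STAR 2.5.2b, DESeq2 and the mm10 build. No source used here gives the annotation, strand setting or use of molecular identifiers, so overlapping or antisense genes may share counts. The deposited values are a signal per gene and library, in which the authors had scaled gene counts by 1 factor for each library. Of 24421 rows, 27 with date names (0.294% to 0.363% of reads) were left out. Dividing by the value of 1 read gave whole numbers, to within 0.01, for 100% of values, which recovered reads for all 57 libraries, and depth limits the precision of low genes.

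The 10526 genes with a mean of at least 10 were tested on log2(value + 1) with limma 3.58.1 (mean-variance trend, 15 groups, no covariate, R 4.3.3), two-sided, with Benjamini-Hochberg adjustment over all of them and a threshold of 0.05. Fold changes on this scale understate low genes. edgeR 4.0.16 (quasi-likelihood) and DESeq2 1.42.0 were run on recovered reads. Only the limma steps were tested on simulated data, in which every gene had the same dispersion. Other alternatives varied the filter, pseudocount, scaling, libraries and covariates. Coding sequences came from GENCODE M21 and start windows from RefSeq.

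Members, lists and tests were chosen with earlier results of these data known. Named are members that passed or, where fewer than 5 passed, the 5 smallest p-values from which examples are given, the 8 smallest of each F test, the 3 highest and lowest levels, paralogue pairs, Rps6 and Rps19bp1, and passing genes of the lists, and some of these are not reported here. Rpl35a, Rpl7, Rpl5 and Rpl7a were chosen after their values were seen.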

Additional observations from a re-analysis of the deposited data

Results flagged for a closer look

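Among groups of 4 libraries, 8 of 168 examined (14 quantities in 12 groups) held 1 library far from the other 3 relative to the group's range. Chance alone gives about 1 in 20 such groups.

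Among genes that varied over the Dark or Light times, Rps20 had 1695 normalised counts in Dark ZT7.5 replicate 3, against 2022 to 2047 in the others. Rpl38 had 4536 in Light ZT3 replicate 4, against 3935 to 3993. Rpl15 had 88.0 in Light ZT3 replicate 3, against 130 to 133. Rps15a had 84.1 in Light ZT7.5 replicate 4, against 77.1 to 78.0.

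Rpl35a had 621 in Dark ZT15 replicate 1, against 102 to 164 in the others, the Dark group in which its replicate numbers went the Light way. Rpl7a had such a library in 3 groups: 749 in Dark ZT7.5 replicate 2, against 1932 to 2121, then 1808 in Light ZT3 replicate 4, against 511 to 662, and 2167 in Light ZT11.5 replicate 3, against 848 to 959.

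The light-dark difference of Rpl37rt varied over the 7 shared times with an adjusted p of 0.0395 in limma.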

How the results depend on the processing

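The count of members that passed for Light against Dark at ZT11.5 was 1, and it was 2 with a minimum mean of 50, with only the groups compared, with an Xist or a Ttr term, without libraries under 2 M reads and in edgeR, 3 in DESeq2, and 0 to 2 with single libraries left out. Rpl37rt passed in 21 of 22 settings, with adjusted p from 0.000157 to 0.0639. For Light ZT13 against Light ZT11.5 the count of 1 was 0 with only the groups compared, 2 in DESeq2 and 0 to 2 with single libraries left out. Over the Dark times the count of 6 was 2 without the filter on low values, 2 without libraries under 2 M reads and 2 to 7 with single libraries left out. Over the Light times the count of 3 was 8 with a Malat1 term, 8 in DESeq2 and 2 to 7 with single libraries left out. For the difference that varies with time the count of 1 was 0 without the filter, with a Malat1 term and without libraries under 2 M reads, 2 with terms for replicates 3 and 4, 3 in DESeq2, and 0 to 3 with single libraries left out. For Dark ZT1 against Dark ZT0 the count of 0 was 3 in DESeq2. The cause was not tested. Signs reversed for Rps20 at Dark ZT13 against Dark ZT11.5, to 0.025 without libraries under 2 M reads, and for Rpl23a at Light ZT1 against Dark ZT0, to 0.049 without Light ZT1 replicate 3 (-0.65 to 0.049 with single libraries left out), and neither gene had passed. Without libraries under 2 M reads the members' median for the dusk change in Light minus that in Dark was -0.15.

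Same-numbered Light and Dark libraries of a time did not deviate together in the median (25 correlations, -0.20 to 0.45, median -0.07). With only 3 or 4 libraries in a group, this cannot decide whether the numbers pair Light with Dark samples. Within an arm the median was 0.11 in Light (78 pairs, -0.20 to 0.41) and 0.03 in Dark. With the replicate block the counts stayed at 1 for ZT11.5, 1 for Light ZT13 against Light ZT11.5, 6 over the Dark times, 3 over the Light times and 1 for the difference that varies with time. Scaling moved the median of all genes by at most 0.00674 on the log2 scale. Genes with a mean near 10 rest on few reads, and tags shared between copies of a gene limit what single members show.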
